A study of Xenopus laevis with 12 samples.

Results

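The comparison described here is that of whole *Xenopus laevis* embryos injected with Fam46a-MO1 (MO1) against embryos injected with a control oligonucleotide (CoMO), both collected at stage 10.5, the onset of gastrulation. The arrays were chosen by their labels, 2 for MO1 and 2 for CoMO of the 12 arrays of the series, and all 32539 probe sets that are not array controls were compared. Each oligonucleotide was given at 10 ng per cell, injected at the animal pole into every cell of embryos at the 4-cell stage, and embryos of both groups came from in vitro fertilization with no stated difference in strain or genotype. The other arrays hold embryos given Fam46a-MO2 with Fam46a-MO3 (MO2+MO3, 7 ng of each per cell) at stage 10.5, and the same 3 injections at stage 8, a blastula stage. The labels call the 2 arrays of a group biological replicates, and give neither the number of embryos pooled, nor the site in the fam46a RNA that MO1 binds, nor how the stage was judged. The stated purpose was to find genes that respond to depletion of fam46a.

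Morpholinos are antisense oligonucleotides that block the translation or the splicing of the RNA they pair with. The fam46 genes, now named tent5, code for poly(A) polymerases outside the canonical class, enzymes that add adenosines to the tails of RNAs. By stage 10.5 a frog embryo has started its own transcription, while many RNAs laid down in the egg are still present, and its ectoderm, mesoderm and endoderm have begun to express the transcription factors and secreted proteins by which they are told apart. *Xenopus laevis* is allotetraploid, so most genes have a copy on the long (.L) and a copy on the short (.S) subgenome.

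All values are log2 values that had been centred on the median of the 6 arrays of the stage, so a value of 0 means the middle of those arrays and not a low level. Where 2 values of a group are given, replicate 1 precedes replicate 2. A difference is MO1 minus CoMO, followed by ± its moderated standard error (n = 2 arrays per group) in the fit whose p is given first, and a probe set was called at a limma adjusted p under 0.05 over all 32539. Both a fit without and a fit with a block are given because same-numbered arrays varied together: the deviations of replicates from their group means correlated at 0.85 between MO1 and CoMO, and a fit with the replicate number as a block removes that shared part. Adjusted p values are from the fit without the block unless the block is named. The difference itself is the same in both fits.

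In MO1 embryos 144 probe sets were higher and 154 lower than in CoMO embryos, 298 called in all or 0.916% of those tested, and 166 of them differed at least 2-fold. With the replicate block 2758 were called higher and 2522 lower, 16.2% of those tested, and 485 of these, 1.49% of those tested, differed at least 2-fold. All 298 were also called with the block, had the same sign in both same-numbered pairs, and had MO1 and CoMO values that did not overlap. Such separation was common with 2 arrays per group. Among all probe sets tested, called or not, MO1 lay wholly above CoMO in 6453 and wholly below in 5579. The sign was the same in both pairs for 70.2%. The 298 were chosen by their calls, so their separation adds no further support. Across all probe sets the differences of the 2 pairs had standard deviations of 0.342 and 0.344 and correlated at 0.720, a description over probe sets that share their arrays and are not replicates. In both pairs 115 probe sets were at least 2-fold higher and 203 at least 2-fold lower in MO1, and 1 was at least 2-fold changed in opposite directions. The difference between the replicates was larger than that between the groups: replicate 1 minus replicate 2 had a standard deviation of 0.471 in MO1 and 0.464 in CoMO. The count of calls rested on each of the 4 arrays: it was 53 without MO1 replicate 1, 87 without MO1 replicate 2, 102 without CoMO replicate 1 and 38 without CoMO replicate 2. With the block these fits gave 2037, 2406, 2650 and 2676 calls. When only the 6 arrays of stage 10.5 were fitted, 0 probe sets were called by limma without the block, with 3317 at an unadjusted p under 0.05, and 4351 with it.

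**Figure D1:**
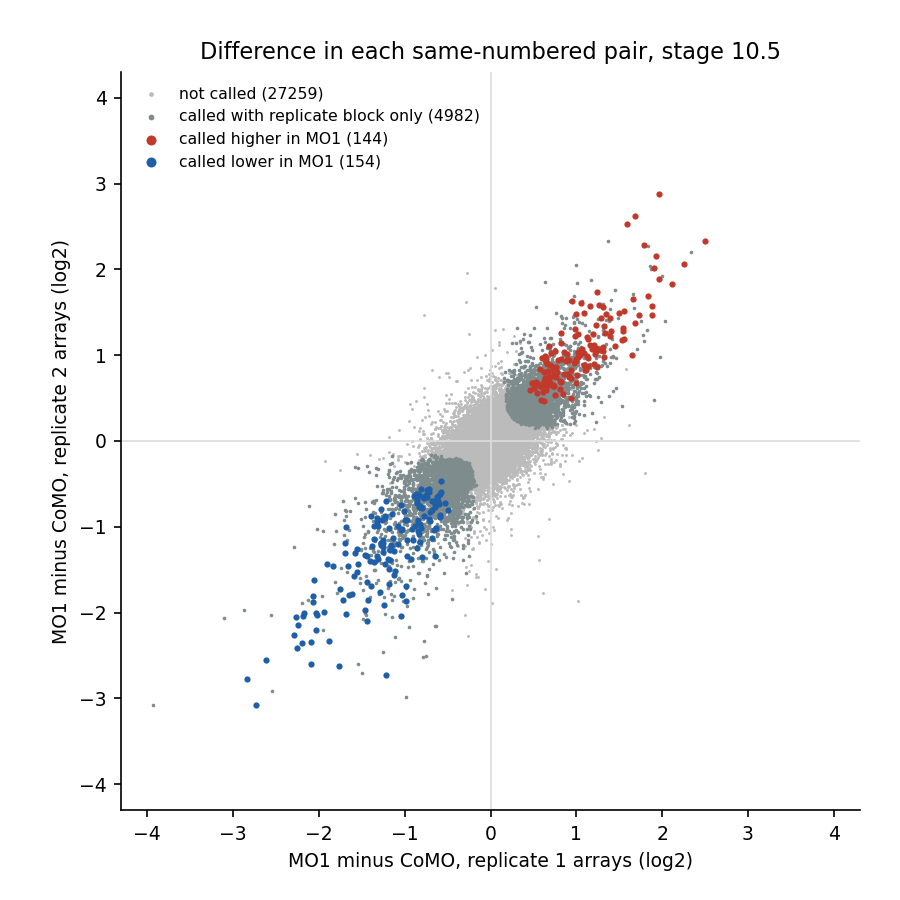
Log2 difference MO1 minus CoMO at stage 10.5 of each probe set, in the replicate 1 arrays (horizontal axis) and in the replicate 2 arrays (vertical axis). Red points are the 144 called higher and blue points the 154 called lower without the block, dark grey points were called only with the replicate block. All 298 coloured points lie in the quadrants where both pairs have the same sign, as do 70.2% of all probe sets.

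MO1 is labelled as directed against fam46a, now named tent5a, and the copy measured here was tent5a.L (gene 100158383). Its first probe set had values of -0.13 and -0.12 in MO1 and 0.14 and -0.43 in CoMO, and its second -0.13 and -0.02 in MO1 and 0.09 and -0.04 in CoMO. The groups overlapped on both, with differences of 0.02 ± 0.35 and -0.10 ± 0.29 (adjusted p = 1.0 each, 0.96 and 0.80 with the block). Since a block of translation can leave the RNA level as it was, and the labels do not say what MO1 blocks, depletion cannot be read from these values. The related gene tent5b.S (gene 447449) had differences of 0.04 ± 0.32 and 0.11 ± 0.38 on its 2 probe sets, and neither was called.

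The largest increases with a gene name included rpn2.S (gene 379348), which codes for ribophorin II, a subunit of the oligosaccharyltransferase that attaches N-glycans to proteins in the endoplasmic reticulum. Its values were -0.21 and 0.28 in MO1 against -2.47 and -1.78 in CoMO, a difference of 2.16 ± 0.27 (adjusted p = 0.015). Both MO1 arrays lay well above both CoMO arrays. Of the 14 genes of the oligosaccharyltransferase list, 2 had a probe set called higher and 0 called lower, with a median gene difference of 0.031 against 0.014 over all 11303 gene symbols. The second was stt3b.S, a catalytic subunit, at 0.69 ± 0.10 (adjusted p = 0.024) on 1 of its 3 probe sets, the others being at -0.01 and 0.12. Over all gene symbols 0.690% were called higher and 0.557% lower. With the block 10.9% were called higher and 9.65% lower. With the block the 2 copies of ostc, a further subunit, were called in opposite directions, ostc.S at 0.35 and ostc.L at -0.89 on its largest probe set (adjusted p = 0.032 and 0.0020 with the block).

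Both copies of pik3r3 rose. This gene codes for a regulatory subunit of phosphatidylinositol 3-kinase, which carries signals from insulin and growth factor receptors. pik3r3.S (gene 446786) had 0.99 and 1.03 in MO1 against -0.94 and -1.13 in CoMO, a difference of 2.04 ± 0.14 (adjusted p = 0.0014). pik3r3.L (gene 447594) had 1.17 and 1.07 in MO1 against -0.79 and -0.82 in CoMO, a difference of 1.93 ± 0.13 (adjusted p = 0.0014). In each copy the replicates of a group lay within 0.2 of each other and the groups were far apart. They were the only 2 called higher of the 27 genes of the PI3K list without the block, and 0 were called lower. With the block 4 were called higher (14.8%) and 2 lower (7.41%), against 10.9% and 9.65% over all gene symbols. irs1.L, an insulin receptor substrate, was at 0.72 ± 0.11 (adjusted p = 0.0036 with the block) and had 3 of its 4 probe sets called higher. igf2.L and igf2.S, copies of an insulin-like growth factor gene, were at -0.69 ± 0.15 and -0.34 ± 0.08 (0.017 and 0.024 with the block). The recovered level of igf2.S, with a median of 1.1 to 2.1, lay in the range of the negative control probe sets, and that of igf2.L may lie there.

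Other leading increases came from genes of varied function. rell1.L (gene 431922), a relative of the TNF receptor family member RELT, had 1.78 and 1.53 in MO1 against -0.34 and -0.30 in CoMO, a difference of 1.97 ± 0.16 (adjusted p = 0.0023), and its copy rell1.S rose by 1.24 ± 0.18 (adjusted p = 0.024). The values of ccnyl1.S (gene 495298), a cyclin Y relative, were 1.59 and 1.52 in MO1 and -0.06 and -0.14 in CoMO, a difference of 1.66 ± 0.11 (adjusted p = 0.0014). In rell1.L and ccnyl1.S every MO1 array lay over 1 log2 unit above every CoMO array. The next included agap1.L, which codes for a GTPase-activating protein of Arf proteins, at 1.53 ± 0.15 (adjusted p = 0.0053), pex16.S, a peroxisome biogenesis factor, at 1.53 ± 0.21 (0.020), rab3a.L, a GTPase of secretory vesicles, at 1.49 ± 0.22 (0.029), and pcyt1b.S, which makes CDP-choline for phosphatidylcholine, at 1.43 ± 0.19 (0.019). Further increases were abhd18.L, a member of the alpha/beta hydrolase fold family, at 1.68 ± 0.25 (0.027), cmtm7.S, a MARVEL-domain membrane protein, at 1.6 ± 0.25 (0.034), and ptk2.S, the focal adhesion kinase, at 1.41 ± 0.11 (0.0023). hells.L, a chromatin remodeller needed for DNA methylation, was at 1.43 ± 0.21 (0.029) on 1 probe set, with 0.62 and 0.30 on the other 2.

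**Figure D2:**
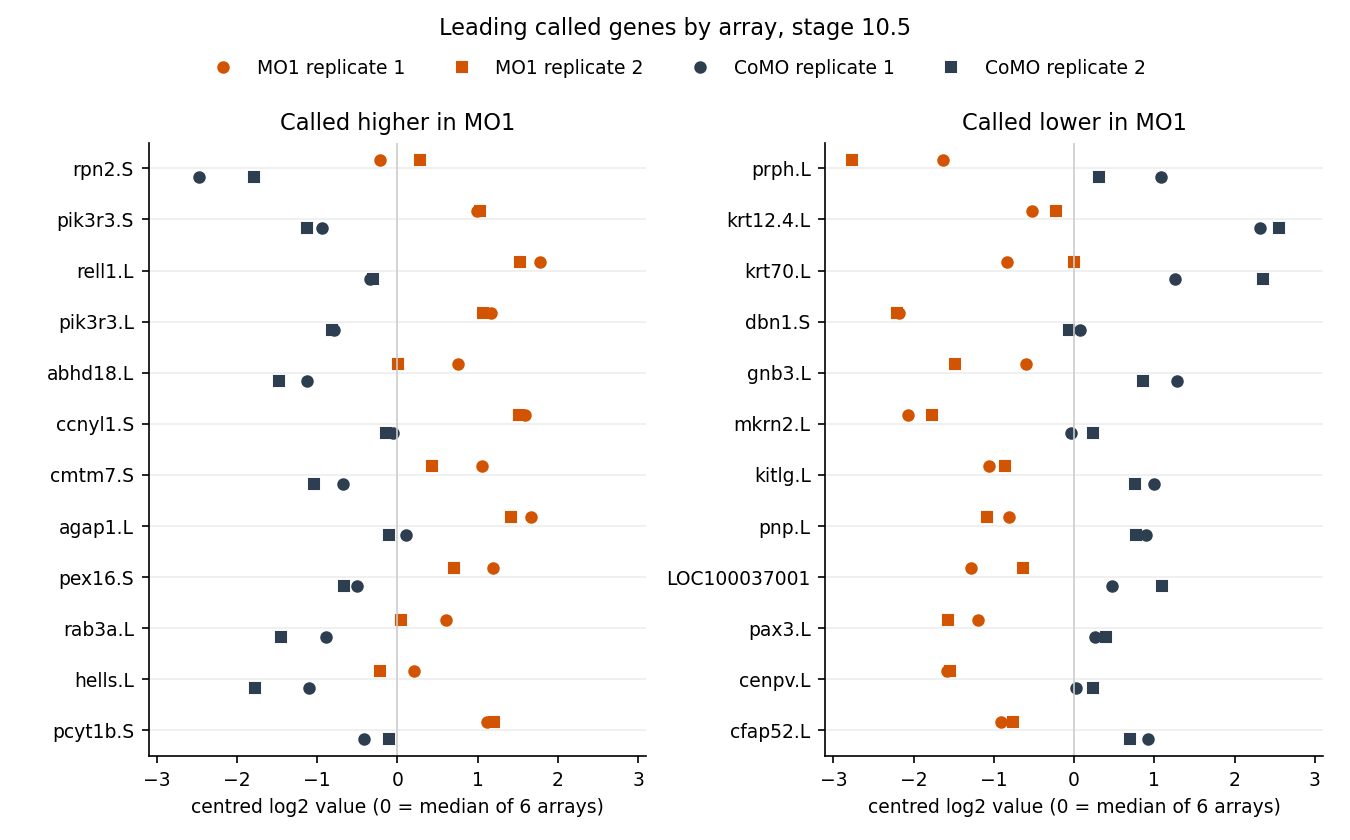
Centred log2 values of the 12 genes with the largest called increase and the 12 with the largest called decrease, in the MO1 arrays (orange, upper row of each gene) and the CoMO arrays (dark blue, lower row) of stage 10.5, with circles for replicate 1 and squares for replicate 2. In all 24 genes, which were chosen by their calls, the MO1 values lie to 1 side of the CoMO values.

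Some genes were called only with the block, which removes the part that same-numbered arrays of a stage share. hprt1.L (gene 779138), the purine salvage enzyme that recycles hypoxanthine and guanine, had 1.77 and 0.23 in MO1 against -0.23 and -1.70 in CoMO, a difference of 1.96 (adjusted p = 3.9e-05 with the block, 0.31 without). MO1 exceeded CoMO by about as much in each replicate although the replicates differed by nearly that amount. Its other probe sets were at 1.19 and 1.47, and all 3 were called with the block. Also called only with the block were oaf.S at 1.95 (3.8e-05 with the block, 0.086 without) and dnajc9.L, a J-domain co-chaperone, at 1.69 (3.9e-05, 0.078). So were uqcrc1.L, a core protein of the cytochrome bc1 complex, at 1.57 (0.00025, 0.091), and det1.L, a factor of ubiquitin ligases, at 1.47 (9.6e-05, 0.076). bcl6.L, which codes for a transcriptional repressor, had 1.77 and -0.33 in MO1 against -0.02 and -1.5 in CoMO, so its groups overlapped, with a difference of 1.48 (0.00045 with the block, 0.62 without). The lower arrays of bcl6.L and of the hprt1.L probe set at 1.19 may lie in the range of the negative controls.

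Among named genes, the largest decrease called without the block was that of prph.L (gene 380221), which codes for peripherin, an intermediate filament protein of neurons. Its values were -1.64 and -2.77 in MO1 against 1.08 and 0.31 in CoMO, a difference of -2.90 ± 0.39 (adjusted p = 0.020). dbn1.S (gene 494829), the actin-binding protein drebrin, had -2.18 and -2.21 in MO1 against 0.07 and -0.07 in CoMO, a difference of -2.20 ± 0.14 (adjusted p = 0.0011), and all 3 of its probe sets were called lower with the block, between -2.20 and -1.78. For both genes the groups were clearly separate. Of the 75 genes of the cytoskeleton list these 2 were called lower and 0 higher, and the median was -0.035. With the block 16 were called lower and 1 higher, 21.3% and 1.33% of the list, against 9.65% and 10.9% over all gene symbols. Among the lower were nefl.L, a neurofilament subunit, at -1.56 ± 0.28 (adjusted p = 0.0073 with the block) and cdc42ep4.S, an effector of Cdc42, at -0.86 ± 0.11 (0.0015). The member called higher was tubg1.L, which codes for gamma-tubulin, at 0.64 ± 0.08 (0.0020) on 1 of 2 probe sets.

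Other leading decreases also came from genes of varied function. gnb3.L (gene 380144), a beta subunit of heterotrimeric G proteins, had -0.60 and -1.48 in MO1 against 1.28 and 0.86 in CoMO, a difference of -2.11 ± 0.28 (adjusted p = 0.020). kitlg.L (gene 379817), the ligand of the Kit receptor, had -1.06 and -0.86 in MO1 against 1.0 and 0.76 in CoMO, a difference of -1.83 ± 0.20 (adjusted p = 0.0089). The groups did not overlap in either gene. pnp.L (gene 379499), purine nucleoside phosphorylase, fell by 1.78, with -0.81 and -1.08 in MO1 against 0.90 and 0.77 in CoMO (adjusted p = 0.0023). The difference of hprt1.L, called only with the block, had the opposite sign. mkrn2.L, a makorin RING finger protein, was at -2.02 ± 0.22 (0.0089), cenpv.L, a centromere protein, at -1.70 ± 0.13 (0.0023), cfap52.L, a protein of cilia and flagella, at -1.64 ± 0.16 (0.0057), plin3.S, which coats lipid droplets, at -1.58 ± 0.19 (0.012), and LOC100037001 at -1.74 ± 0.27 (0.035) on 1 of 4 probe sets. The other 3 of LOC100037001 were at -1.14, -0.27 and -0.03 (adjusted p = 0.034, 0.96 and 1.0). znf451.L shows a gene whose probe sets disagreed: 2 were at -2.29 and -2.04 and called lower with the block (0.00019 and 4.1e-05), and 1 was at 0.83 and called higher with it and without it (0.0026 and 0.042). Of the 2702 genes with 2 or more probe sets, 23 had calls in both directions with the block and 0 without it.

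Of the 172 named probe sets, 48 were called without the block, and 12 of these stayed called without each of the 4 arrays in turn. These were pik3r3.L, pik3r3.S, rell1.L, ccnyl1.S, ptk2.S and foxd4l1.2.L, all higher, and krt12.4.L, dbn1.S, pnp.L, cenpv.L, dlx3.L and dlx3.S, all lower. For the others of the 48 the call without the block was lost without at least 1 array. Probe sets without a gene name and those named only by the other contrasts, such as plin3.S, are not among the 172 and were not followed in this way. With the block 113 of the 172 stayed called without each array in turn.

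Genes of the epidermis list were more often called lower than higher in MO1 embryos. In whole embryos fewer cells of a type and less RNA per cell cannot be told apart, here and in the lists that follow. Of the 45 genes of the epidermis list, 10 had a probe set called lower and 0 called higher. With the block 21 were called lower and 4 higher, 46.7% and 8.89% of the list, against 9.65% and 10.9% over all gene symbols. The median gene difference was -0.263. krt12.4.L (gene 379535), a keratin of the embryonic epidermis, had -0.52 and -0.23 in MO1 against 2.32 and 2.55 in CoMO, a difference of -2.80 ± 0.13 (adjusted p = 0.00040). Its copy krt12.4.S was at -2.73 and the related krt12.5.S at -3.50 (adjusted p = 3.9e-05 and 4.1e-05 with the block, 0.077 and 0.13 without). In all 3 keratin genes both MO1 arrays lay below both CoMO arrays. The median level of krt12.4.L was 1.5 to 2.5, so both its MO1 arrays lay in the range of the negative controls, and its CoMO replicate 1 may lie there. Both MO1 arrays of krt12.4.S and MO1 replicate 1 of krt12.5.S may lie in that range too, where a fall is understated. krt70.L was at -2.22 ± 0.37 (adjusted p = 0.038). krt7.L fell by 1.40 ± 0.23 on 1 of 5 probe sets (0.038), 4 being called lower with the block and the last at 0.20. dlx3, a homeobox gene of non-neural ectoderm, was called lower in both copies: dlx3.L had -0.02 and -0.15 in MO1 against 1.42 and 1.5 in CoMO, a difference of -1.54 ± 0.13 (0.0031), and dlx3.S had -0.01 and 0.01 against 1.25 and 1.3, a difference of -1.27 ± 0.11 (0.0031). A further dlx3.L probe set was at 0.40 and called higher with the block (0.034). Against the majority, foxi2.L and foxi1.L, forkhead genes of the animal ectoderm, were at 0.69 ± 0.09 and 0.45 ± 0.13 (0.0018 and 0.049 with the block, 0.23 and 0.96 without). The count of 10 was 4 without MO1 replicate 1, 5 without MO1 replicate 2, 6 without CoMO replicate 1 and 3 without CoMO replicate 2.

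The preplacodal and neural crest list of 22 genes had 1 called lower and 0 higher. With the block 8 were lower (36.4%) and 0 higher, against 9.65% and 10.9% over all gene symbols, and the median was -0.220. pax3.L (gene 496377), a transcription factor of the neural border, had -1.20 and -1.57 in MO1 against 0.26 and 0.40 in CoMO, a difference of -1.72 ± 0.22 (adjusted p = 0.017). Of its 5 probe sets 3 were called lower with the block, at -1.72, -1.07 and -1.01, and 2 were not, at -0.20 and 0.06 (0.43 and 0.76 with the block). The recovered level of the probe set at -0.20 lay in the range of the negative controls, and those at 0.06 and -1.01 may lie there. irx1.S and irx1.L, which stand in the neural plate list too, and foxd3.L were at -1.06, -0.94 and -0.93 (0.0012, 0.0017 and 0.0016 with the block). The neural plate list of 40 genes had 1 called in each direction. With the block 11 were lower (27.5%) and 1 higher (2.50%), with a median of -0.126 that was -0.015 without MO1 replicate 2 and -0.229 without MO1 replicate 1. sox2.L, which marks neural progenitors, had -0.40 and -0.60 in MO1 against 0.95 and 0.81 in CoMO, a difference of -1.38 ± 0.22 (adjusted p = 0.038), and its 3 probe sets lay between -1.38 and -1.10, all called with the block. hes5.1.L, a target of Notch, was at -1.62 ± 0.16 (0.00055 with the block, 0.065 without). The member called higher was foxd4l1.2.L, a forkhead gene of the early neural plate, with 1.02 and 1.35 in MO1 against -0.24 in both CoMO arrays, a difference of 1.43 ± 0.12 (adjusted p = 0.0029).

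Genes of the ventral side and of BMP signalling, the pathway that favours epidermis and ventral mesoderm, numbered 46, of which 2 were called lower and 0 higher. With the block 13 were lower (28.3%) and 5 higher (10.9%), against 9.65% and 10.9% over all gene symbols, and the median was -0.184. post.L, a gene of the posterior embryo that stands in the epidermis list too, had 0.06 and -0.06 in MO1 against 1.03 and 1.28 in CoMO, a difference of -1.15 ± 0.11 (adjusted p = 0.0057), and its 7 probe sets lay between -1.15 and -0.53, all lower with the block. Some of these post.L probe sets have recovered levels that may lie in the range of the negative controls. ventx1.1.S, a homeobox target of BMP, was at -0.74 ± 0.10 (adjusted p = 0.023). Among the 5 called higher with the block were smad6.L, an inhibitory Smad, at 0.59 ± 0.09 and bambi.L, a pseudoreceptor, at 0.41 ± 0.10 (0.0029 and 0.028 with the block, 0.18 and 0.54 without).

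Mesodermal, organizer and endodermal genes were called lower only in the fit with the block, and none of the 3 lists had a gene called higher in either fit. Of all gene symbols 9.65% were called lower and 10.9% higher with the block. The mesoderm list had 23 of 62 genes lower (37.1%) and a median of -0.311, the organizer list 10 of 31 (32.3%) and -0.301, and the endoderm list 13 of 36 (36.1%) and -0.275, cer1.S, foxa2.L and both copies of foxa1 standing in both of the last lists and both copies of mix1 and mixer in the mesoderm and endoderm lists. tbxt.2.S, a brachyury gene, had -1.24 and -0.30 in MO1 against 0.30 and 2.30 in CoMO, a difference of -2.07 (adjusted p = 0.0011 with the block, 0.22 without). Its recovered median level was 3.2 to 5.2, so its lower arrays may lie in the range of the negative controls. myf5.L, a myogenic factor, had -1.78 and -0.15 in MO1 against 0.35 and 1.70 in CoMO, a difference of -1.99 (9.7e-05, 0.23). Both genes were higher in replicate 2 than in replicate 1 in each group and lower in MO1 in each replicate. myod1.S and tbxt.L were at -1.38 and -1.6 (0.0017 and 0.017 with the block, 0.44 and 0.17 without).

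Among organizer genes, cer1.S (gene 398060), the secreted head inducer Cerberus, had -1.64 and -0.33 in MO1 against 0.33 and 1.48 in CoMO, a difference of -1.89 (adjusted p = 0.00033 with the block, 0.27 without). The lower arrays of this probe set may lie in the range of the negative controls. The other cer1.S probe set, at a higher level, was at -1.14 (0.0029 with the block, 0.57 without). The Wnt antagonists frzb.L and frzb2.L were at -1.5 and -1.24 (0.0017 and 0.00048 with the block). In the endoderm, foxa2.L, a forkhead factor, was at -1.54 (0.00025 with the block, 0.59 without) and darmin.L, a peptidase of the early endoderm, at -1.22 (0.00019, 0.73). The replicates moved in these lists as well: the median of replicate 2 minus replicate 1 over MO1 and CoMO was 0.307 for organizer genes, 0.155 for endoderm and 0.14 for mesoderm, against 0.045 for epidermis. The part of that difference in the result was not tested beyond the block and the pairs: within the replicate 1 and replicate 2 pairs the medians were -0.347 and -0.318 for mesoderm, -0.325 and -0.238 for organizer and -0.387 and -0.161 for endoderm. Without MO1 replicate 1 the unblocked medians were -0.119 for organizer and -0.068 for endoderm, and without MO1 replicate 2 they were -0.472 and -0.538.

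**Figure D3:**
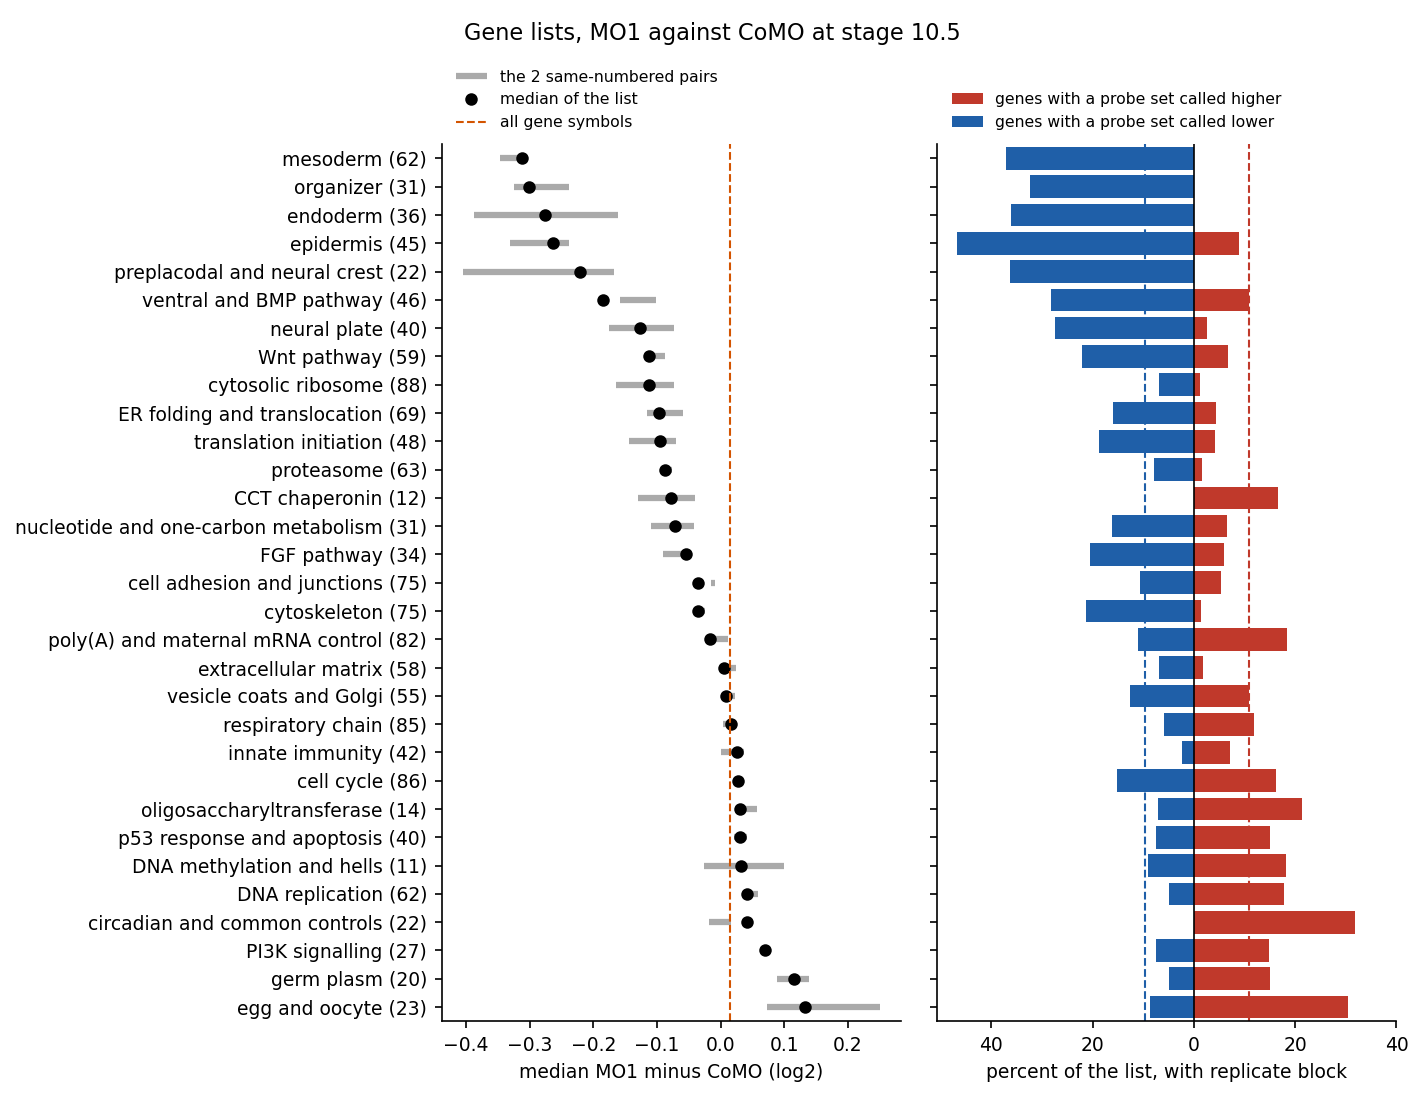
Left, median over the genes of each list of the log2 difference MO1 minus CoMO (points), the medians within the 2 same-numbered pairs (ends of the grey bars) and the median of all gene symbols, 0.014 (dashed line). Right, percent of each list's genes with a probe set called higher (red, to the right) or lower (blue, to the left) with the replicate block, with the percent over all gene symbols as dashed lines, 10.9% and 9.65%; the lists of germ layers stand at the top with the lowest medians.

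Of the signalling lists, the Wnt list of 59 genes had 0 called without the block. With it 13 were lower (22.0%) and 4 higher (6.78%), against 9.65% and 10.9% over all gene symbols. The higher included the receptor lrp5.L at 0.72 ± 0.08 (adjusted p = 0.0011 with the block), and the lower ror2.L and sp5.L, a receptor and a target gene, at -1.07 and -0.87 (0.0041 and 0.0078). The FGF list of 34 genes had 0 called without the block, and with it 7 lower and 2 higher, 20.6% and 5.88%. The 2 higher were the copies of the receptor gene fgfr3, fgfr3.L at 0.65 ± 0.08 and fgfr3.S at 0.36 ± 0.08 (0.0013 and 0.018), while the receptors fgfr1.L and fgfr2.L were at -0.51 ± 0.12 and, on 1 of 2 probe sets, -0.62 ± 0.12 (0.021 and 0.0094).

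Of the 23 genes of the egg and oocyte list, 0 were called without the block, and with it 7 were called higher (30.4%) and 2 lower (8.70%). These shares were 10.9% and 9.65% over all gene symbols. The median of the list was 0.133 against 0.014 over all gene symbols. Both copies of fbxo43, which codes for the inhibitor that keeps the egg arrested in meiosis, were called higher with the block, fbxo43.L at 1.46 and fbxo43.S at 0.79 (adjusted p = 0.00051 and 0.0023 with the block, 0.12 and 0.48 without). btg4.L, an adaptor of deadenylation in oocytes, was at 1.19 (0.00093, 0.18). A gene can stand in more than 1 list, so calls of this list can be counted in others too. The 2 lower were both copies of wee2, a kinase that inhibits Cdk1, with wee2.L at -1.22 and wee2.S at -0.73 (0.00081 and 0.0012 with the block). This list's replicate 2 minus replicate 1 median was -0.24, opposite in sign to that of the germ layer lists, and its part in the result was not tested beyond the pairs, where the medians were 0.25 and 0.073.

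The list of poly(A) tail and maternal mRNA control, the process in which fam46 enzymes act, held 82 genes, of which 1 was called higher and 0 lower. With the block 15 were higher (18.3%) and 9 lower (11%), against 10.9% and 9.65% over all gene symbols. The median was -0.016, with 43 of the 82 gene means below 0. The called gene was parn.L (gene 394409), a poly(A)-specific ribonuclease, with 0.07 and -0.07 in MO1 against -0.60 and -0.88 in CoMO, a difference of 0.74 ± 0.12 (adjusted p = 0.038). With the block patl2.L, a translational repressor of oocytes, was at 0.86 and pabpn1l.S, an embryonic poly(A)-binding protein, at 0.79 on 1 of 2 probe sets (0.0013 each), and btg1.L and btg2.S, antiproliferative adaptors of deadenylases, were at -0.70 and -0.69 (0.011 and 0.0057). In the germ plasm list of 20 genes, sybu.S, which links cargo to kinesin, rose by 0.67 ± 0.12 (adjusted p = 0.045). With the block 3 were called higher (15.0%) and 1 lower (5.0%), dnd1.L and rbpms2.L, which code for RNA-binding proteins, being at 0.56 and 0.49 (0.0048 and 0.012).

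A list of circadian clock genes and common controls had 0 of 22 genes called without the block. With it 7 were called higher (31.8%) and 0 lower, against 10.9% and 9.65% over all gene symbols, and the median was 0.042. per1.L had 0.51 and 0.32 in MO1 against -0.75 and -0.42 in CoMO, a difference of 1.0 ± 0.12 (adjusted p = 0.0013 with the block, 0.17 without). arntl.L, per2.L and cry1.L, also parts of the clock, were at 0.77, 0.56 and 0.49 (0.0067, 0.0050 and 0.035 with the block), per2.L on 1 of 2 probe sets, and the recovered level of arntl.L may lie in the range of the negative controls.

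Among genes of the protein synthesis and folding machinery calls were few without the block. Of 88 cytosolic ribosome genes, 1 was called lower and 0 higher. With the block 6 were lower (6.82%) and 1 higher (1.14%), with a median of -0.113 that was 0.037 without CoMO replicate 2 and -0.293 without CoMO replicate 1. The called probe set, of rps2.L, at -1.03 ± 0.17 (adjusted p = 0.038), had a recovered level that may lie in the range of the negative controls, and the other 2 probe sets of the gene were at -0.08 and -0.29. In the endoplasmic reticulum folding list of 69 genes 0 were called. With the block 11 were lower (15.9%) and 3 higher (4.35%), among them pdia4.L, a disulfide isomerase, at -0.74 and xbp1.L, the transcription factor of the unfolded protein response, at -0.67 (0.016 and 0.0036 with the block), and pdia6.S at 0.60 (0.0035). cct4.S, a subunit of the CCT chaperonin, had 0.83 and 0.62 in MO1 against -0.49 and -0.36 in CoMO, a difference of 1.15 ± 0.17 (adjusted p = 0.027), and cct4.L was at 0.81 (0.0035 with the block, 0.096 without). The other genes of that list of 12 were not called, and its median was -0.078. The vesicle coat and Golgi, translation initiation, respiratory chain and proteasome lists, of 55, 48, 85 and 63 genes, had 0 called without the block. With it 6, 2, 10 and 1 were called higher (10.9%, 4.17%, 11.8% and 1.59%) and 7, 9, 5 and 5 lower (12.7%, 18.8%, 5.88% and 7.94%). Over all gene symbols these shares were 10.9% higher and 9.65% lower.

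Among genes of DNA replication, cdc45.L, a part of the replicative helicase, rose by 0.66 ± 0.10 and mcm6.2.L, another part, was at -0.97 ± 0.16 (adjusted p = 0.035 and 0.038). With the block 11 of 62 were called higher (17.7%) and 3 lower (4.84%). dnmt1.L, the maintenance DNA methyltransferase, was at 0.60 ± 0.09 (0.0035 with the block, 0.091 without). The cell cycle list of 86 genes had 0 called without the block. With it 14 were higher (16.3%) and 13 lower (15.1%), against 10.9% and 9.65% over all gene symbols. fzr1.L, an activator of the anaphase-promoting complex, was at 1.12 and cdk9.L, a kinase of transcription elongation, at -1.19 on 1 of 2 probe sets (0.00030 and 0.0015 with the block). Of 40 genes of the p53 response and apoptosis, a response that morpholinos are known to raise in zebrafish, ei24.S rose by 0.81 ± 0.11 (adjusted p = 0.019) and 0 were lower. With the block 6 were higher (15.0%) and 3 lower (7.5%), and the median was 0.031. Of 42 innate immunity genes 0 were called. With the block 3 were higher (7.14%) and 1 lower (2.38%), the higher including both copies of the adaptor gene myd88 at 0.62 and 0.52 (0.0094 and 0.0047 with the block).

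Genes of the extracellular matrix and of cell adhesion numbered 58 and 75. Both copies of loxl1, a lysyl oxidase that cross-links matrix proteins, fell: loxl1.L had -0.00 and -0.05 in MO1 against 1.25 and 1.14 in CoMO, a difference of -1.22 ± 0.17 (adjusted p = 0.023), and loxl1.S was at -1.22 ± 0.20 (0.038). They were the only matrix genes called without the block, and with it 4 were lower (6.90%) and 1 higher (1.72%). Over all gene symbols 9.65% were called lower and 10.9% higher with the block. Of the adhesion list 1 was called higher, ptk2.S, and 0 lower. With the block 8 were lower (10.7%) and 4 higher (5.33%), so the share lower was near that over all gene symbols. The lower included cdh1.S, E-cadherin, at -1.11, cldn4.L, a claudin of tight junctions, at -1.18 and gjb2.L, a connexin, at -1.41 (0.0011, 0.00071 and 0.0012 with the block). The other probe sets of cldn4.L were at -0.56 and -0.28 (0.038 and 0.12 with the block) and that of gjb2.L at -0.33 (0.20).

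Of the probe sets whose recovered level was higher at stage 10.5 than at stage 8, a larger share was called lower in MO1 than of all probe sets, and a smaller share higher. The centring removed the levels, but the rounding of the deposited numbers leaves an interval of levels for each stage, and a probe set was placed as higher at stage 10.5 where those intervals were at least 1 log2 unit apart; this was chosen after the data had been seen. Placed by the MO2+MO3 arrays of stage 10.5, in neither group but centred on the median of all 6 arrays, 1953 probe sets were higher at stage 10.5. Of these, 450 (23%) were called lower in MO1 with the block and 53 (2.71%) higher, against 7.75% and 8.48% of all probe sets, and without the block 63 (3.23%) lower and 5 (0.256%) higher, against 0.473% and 0.443%. Their median difference was -0.063 against 0.017 for all. Placed by all 6 arrays of stage 10.5, MO1 and CoMO included, 654 were higher, 314 of them (48.0%) called lower with the block and 26 (3.98%) higher, and the median was -0.416. The interval from the MO2+MO3 arrays rests on fewer values, and in simulated data such intervals were too high for 15.79%, against 4.27% from 6 arrays. An interval that is too high at stage 10.5 can place a probe set as higher there in error. The 1953, and the counts by list that rest on them, may hold such probe sets, and how many was not tested. Both placings depend in part on the MO1 and CoMO arrays, the first through the median used for centring. How far the placing itself raised the shares called lower was not tested. The probe sets placed as lower at stage 10.5 numbered 98 and 141 by these ways, with medians of 0.019 and 0.02. At stage 8 the medians of MO1 minus CoMO of the risen probe sets were 0.022 and -0.004. By the MO2+MO3 arrays a risen probe set was found for 27 of 62 mesoderm, 18 of 31 organizer, 16 of 36 endoderm and 19 of 45 epidermis genes, against 701 of all 11303 gene symbols. Whether MO1 embryos were at an earlier point of development than CoMO embryos of the same label was not tested, since no array of another stage shares a scale with these.

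**Figure D4:**
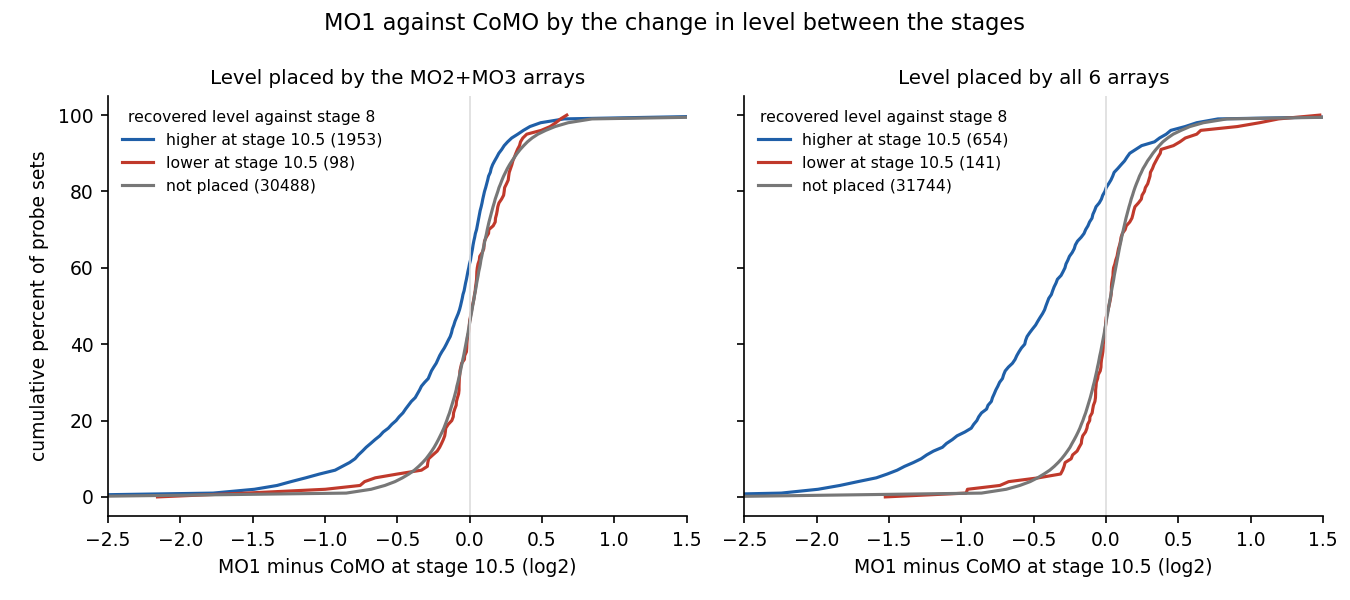
Cumulative percent of probe sets (vertical axis) by their log2 difference MO1 minus CoMO at stage 10.5 (horizontal axis), for probe sets whose recovered level was higher at stage 10.5 than at stage 8 (blue), lower (red) or not placed (grey), with the level at stage 10.5 placed by the MO2+MO3 arrays (left) or by all 6 arrays (right). The blue curve is shifted to negative differences in both panels, with medians of -0.063 and -0.416.

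The paired copies of a gene were read by different probe sets, although a probe set can hybridise to both copies. Both were measured on the same arrays, so their agreement does not replicate the comparison. Both copies were measured for 2009 genes, whose differences correlated at 0.47 across genes. Without the block both copies were called lower in 4 genes, gnb3, loxl1, dlx3 and trim29, and both higher in 2, pik3r3 and rell1, in opposite directions in 0, and only 1 copy in 48. trim29, an epidermal member of the tripartite motif family, was at -0.71 ± 0.12 in trim29.L and -0.82 ± 0.14 in trim29.S (adjusted p = 0.046 and 0.047), and gnb3.S fell by 1.08 ± 0.17 (0.036) on 1 of 2 probe sets, about a log2 unit less than gnb3.L. With the block only 1 copy was called in 499 genes, while both were called higher in 78, lower in 65 and in opposite directions in 13. In these counts a copy with probe sets called in both directions stands as not called. This holds for dlx3.L, so dlx3 is among the 499 and not among the 65. Of the last, park7, which codes for DJ-1, a protein that responds to oxidative stress, had means of -0.779 and 0.782 in the long and short copy, and rdh10, which makes retinal for retinoic acid, -0.615 and 0.678; these 2 were named after their values had been seen. The long and short copies were called at like rates, 0.907% and 1.05% of their probe sets without the block.

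**Figure D5:**
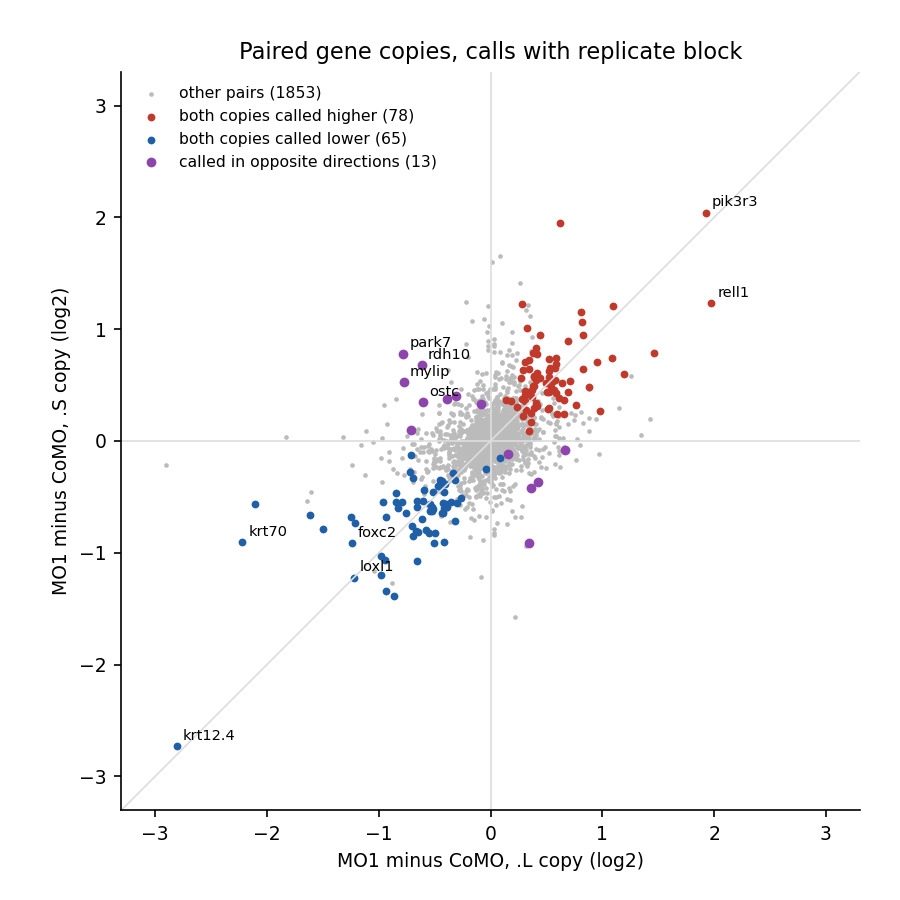
Mean log2 difference MO1 minus CoMO over the probe sets of the long copy (horizontal axis) and the short copy (vertical axis) of 2009 genes, with the diagonal of equal difference. Red and blue points are the 78 and 65 genes with both copies called higher or lower with the replicate block, purple points the 13 called in opposite directions. A copy with probe sets called in both directions stands as not called.

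Of the 2702 genes with 2 or more probe sets, 31 had at least 3 and all of them called in the same direction with the block, 18 lower and 13 higher. The genes with at least 3 probe sets were not counted, so the share among them is not known. Of all probe sets 16.2% were called with the block. Next to dbn1.S, sox2.L and post.L, acy3.L, an aminoacylase gene, was lower on 3 probe sets between -1.61 and -1.27. The recovered levels of these acy3.L probe sets may lie in the range of the negative controls. hprt1.L, chpf.L, a chondroitin polymerizing factor, on 5 probe sets between 0.44 and 1.01, and smg5.L, a factor of nonsense-mediated decay, on 3 between 0.50 and 1.04 were the largest by mean among the higher. Some probe sets of hprt1.L, chpf.L and smg5.L have arrays that may lie in that range too.

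The other reagent was measured on the same stage. A test of MO1 against MO2+MO3 called 179 probe sets, 0.550% of those tested, 83 higher and 96 lower in MO1. With the block it called 3171 (9.75%), 1419 higher (4.36%) and 1752 lower (5.38%). MO2+MO3 against CoMO had 5464 called with the block (16.8%), 2935 higher (9.02%) and 2529 lower (7.77%). The tests against CoMO and against MO2+MO3 use the same MO1 arrays, so a raised overlap between them is built in. Of the 298 probe sets that differed between MO1 and CoMO, 73 also differed between MO1 and MO2+MO3, and of the 5280 called with the block 1594 did. dbn1.S was such a gene, with -2.21 and -2.11 in MO1 against 0.56 and 0.36 in MO2+MO3 on 1 probe set, a difference of -2.62 ± 0.12 (adjusted p = 0.00053). The values of sertad1.L, a coregulator of E2F transcription, were -0.60 and 0.09 in MO1 against 3.08 and 3.65 in MO2+MO3, a difference of -3.62 ± 0.34 (adjusted p = 0.0069), while MO1 and CoMO overlapped. Higher in MO1 than in MO2+MO3 were MGC82636 at 2.45 ± 0.23 (0.0069), agap1.L at 2.02 ± 0.15 (0.0025), zdhhc20.L, a palmitoyltransferase, at 1.93 ± 0.17 (0.0069) and sag.L, an arrestin, at 1.90 ± 0.27 (0.031), and lower were tmem181.L at -2.21 ± 0.36 (0.048) on 1 probe set and plin3.S at -2.04 ± 0.19 (0.0069). The contrasts of MO1 and of MO2+MO3 with CoMO share the CoMO arrays, so their values are given only side by side. In rpn2.S MO1 stood 2.16 and MO2+MO3 stood 2.49 above CoMO; the same pair of differences was, for krt12.4.L, -2.80 and -2.43, for dlx3.L -1.54 and -1.53, for pik3r3.S 2.04 and 1.03, and for ccnyl1.S 1.66 and 0.09. For mkrn2.L they were -2.02 and 0.01, for cenpv.L -1.70 and -0.05 and for pax3.L -1.72 and -0.33. MO1 and MO2+MO3 differed by the test in pik3r3.S, ccnyl1.S, mkrn2.L, cenpv.L and pax3.L (adjusted p = 0.031, 0.0023, 0.012, 0.0045 and 0.048) and did not pass it in rpn2.S and dlx3.L (1.0 each, 0.11 and 0.97 with the block), nor in krt12.4.L without the block (0.42, and 0.022 with it).

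At stage 8 MO1 and CoMO differed on 2 probe sets without the block, 0.00615% of those tested, both of dbn1.S, and on 40 (0.123%) with it, 22 of them (0.0676%) at least 2-fold. The change in the MO1 difference between the stages was called for 7 probe sets (0.0215%), 3 up (0.00922%) and 4 down (0.0123%), and for 1354 (4.16%) with the block, 657 up (2.02%) and 697 down (2.14%); all 8 arrays of that test are separate. krt12.4.L was at 0.16 at stage 8 and -2.80 at stage 10.5, a change of -2.96 ± 0.19 (adjusted p = 0.0060), and pik3r3.S and pik3r3.L, at 0.12 and 0.13 at stage 8, changed by 1.92 ± 0.20 and 1.80 ± 0.18 (0.046 each). The median level of krt12.4.L at stage 10.5 lay in the range of the negative controls. Of the 298 probe sets called at stage 10.5 without the block, 7 differed between the stages without the block and 239 with it. Among the 5280 called with the block, 1323 differed between the stages with it. The same 4 arrays of stage 10.5 enter both tests, so a raised share is built in. Some differences were already there at stage 8: with the block 34 probe sets were called at both stages with the same sign and 1 with opposite signs. The first include dbn1.S, at -1.98 and -2.20 at stages 8 and 10.5 on 1 probe set, rpn2.S at 1.93 and 2.16, uqcrc1.L at 1.57 at both stages, cct4.S at 1.15 at both, fnta.S, a subunit of farnesyltransferase, at -1.76 and -1.23, and mkrn2.L at -1.09 and -2.02. The test of the change between the stages did not call dbn1.S, rpn2.S, uqcrc1.L or cct4.S (adjusted p = 0.53, 0.50, 0.99 and 1.0 with the block) and called mkrn2.L (0.0068 with the block). The probe set of opposite sign belongs to efna1.S, which codes for an ephrin ligand, at 0.69 at stage 8 and -0.88 at stage 10.5 (adjusted p = 0.047 and 0.00080 with the block); it and fnta.S were named after their values had been seen.

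Of the 298 called probe sets, 149 have no single gene in the platform annotation used here, 62 of them higher and 87 lower. Xl2.56875.1.S1_a_at had 2.23 and 2.07 in MO1 against -0.28 and -0.26 in CoMO, a difference of 2.42 ± 0.13 (adjusted p = 0.00042), and Xl2.18624.1.A1_at was at 2.42 ± 0.31 (0.017). The lowest were Xl2.42165.1.A1_at at -2.59 ± 0.21 (0.0029) and Xl2.24742.2.S1_a_at at -2.34 ± 0.18 (0.0022). All 4 had MO1 and CoMO values that did not overlap. Levels set a limit on several of the fold changes: in 70 of the 154 lower calls the lowest MO1 array, and in 57 of the 144 higher calls the lowest CoMO array, may lie below 4, the range of the negative control probe sets, where differences are compressed.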

How the data were processed

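Whole embryos were measured on Affymetrix arrays with biotin-labelled cRNA from total RNA, per the labels' protocols. The authors deposited log2 values per probe set in 1 table; RMA is the tool that the submitters' processing notes name, and the base, not given in the sources used here, was taken as log2. The deposited values had been centred: in every probe set the 6 arrays of a stage had a median within 5e-07 of 0, a step that no label records. Levels are therefore lost, and only an interval for the lowest array could be read back from the single-precision rounding; 6 of 6 TrpnX negative controls fell below 4 at each stage. Precision is limited by having 2 arrays per group; scanner files were not used here. Of the probe sets, 15495 have 1 gene in the platform annotation, 279 several and 16765 none; 15384 were found in the RefSeq gene table of Xenopus_laevis_v10.1. The 96 AFFX control probe sets were left out. A listed gene is the mean of its probe sets, and counted as called where at least 1 was. It can stand in more than 1 list and is then counted in each.

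With limma 3.58.1 (R 4.3.3), 1 coefficient for each group was estimated from all 12 arrays, with eBayes and two-sided Benjamini-Hochberg adjusted p over 32539 probe sets; a further fit added a block for the replicate number, separately by stage. Same-numbered arrays varied together: deviations from group means correlated at 0.821 to 0.864 in each pair of groups of a stage, and at -0.0164 to 0.0244 between stages. The labels do not say what a number shares, nor whether replicates came from separate clutches, so p-values measure the spread between these samples. The median residual standard deviation was 0.104 with the block (4 degrees of freedom) against 0.175 without (6). The fits were tested on simulated data. Genes were named by rule: the fam46 family, the 12 largest calls per direction and 10 more with the block, up to 4 called members of each list with up to 2 against its majority, copy pairs with both copies called, the 4 largest per direction of the other contrasts, up to 2 unnamed probe sets per direction, and up to 3 genes per direction with 3 or more probe sets all called. The comparison, the lists and this rule were chosen with earlier results of these data known. Alternatives were the block, smaller sets of arrays, quantile normalization, median centring, robust eBayes, a level filter, means per gene and leaving out each array.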

Additional observations from a re-analysis of the deposited data

Results flagged for a closer look

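The MO1 difference changed between stage 8 and stage 10.5, by the test of the change itself without the block, in 7 probe sets. krt12.4.L changed by -2.96 (log2 difference at stage 10.5 minus that at stage 8), pik3r3.L by 1.80 and pik3r3.S by 1.92. The recovered median level of krt12.4.L at stage 10.5, 1.5 to 2.5, lay in the range of the negative controls. It was therefore not in the fit limited to median levels of at least 4, which called 2 probe sets for the change between the stages. Of the probe sets with no gene name, Xl2.2989.1.A1_at changed by -2.29, Xl2.18274.1.A1_at by -2.08, Xl2.16295.1.A1_at by -1.93 and Xl2.56875.1.S1_a_at by 2.40. All 7 were called at stage 10.5 and none at stage 8, in either fit, and all 7 were called for the change with the block as well. With 2 arrays per group no array could be tested for standing apart from its group.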

How the results depend on the processing

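The counts of called probe sets depended on the block and on the arrays fitted. None of the 48 named probe sets called without the block changed sign under any alternative, but most alternatives could not change it. The block, the fits to the 6 or 4 arrays, robust eBayes and the level filter leave the difference as it was. The groups of called probe sets did not overlap, so leaving out an array without the block could not turn the sign either. Of 3077 values 20 changed sign, all of 9 probe sets not called. For MO1 against CoMO (298 called, 144 higher, 154 lower) the replicate block gave 5280 (2758 and 2522), the 6 arrays of stage 10.5 alone 0 (0 and 0) and with the replicate block 4351 (2183 and 2168), the 4 arrays of the contrast alone 0 (0 and 0), with 3317 and 2673 by limma at an unadjusted p under 0.05, and with the replicate block 4017 (1912 and 2105), and means per gene, over 11303 genes, 138 (77 and 61). Leaving out each array gave 38 to 102 calls (13 to 36 higher, 25 to 66 lower) and with the replicate block 2037 to 2676, being 2037, 2406, 2650 and 2676 without MO1 1, MO1 2, CoMO 1 and CoMO 2 (1015, 1275, 1294 and 1380 higher, and 1022, 1131, 1356 and 1296 lower). For MO1 against MO2+MO3 (179) the same alternatives gave 3171, 0, 2319, 0, 2507 and 81, and leaving out each array 12 to 33 without the block and with it 1271 and 873 without MO1 1 and 2, and 1303 and 993 without MO2+MO3 1 and 2. For the change between the stages (7) the replicate block gave 1354, the filter on recovered level 2, and leaving out each array 0 to 7, and with the block 515, 437, 356 and 215 without the MO1 1, MO1 2, CoMO 1 and CoMO 2 arrays of stage 8, and 486, 481, 796 and 540 without those of stage 10.5. Quantile normalization, median centring and robust eBayes kept all these counts within 1.5 times, and the level filter did so for the contrasts at stage 10.5. Over the named genes the calls lost were 6 with quantile normalization, 9 with means per gene, 25 to 34 without an array, and all 48 when only the 6 or the 4 arrays were fitted without the block. The share of probe sets risen between the stages that were called lower with the replicate block was 23% placed by the MO2+MO3 arrays and 48.0% placed by all 6 arrays. Both placings were chosen after seeing the data and depend in part on the MO1 and CoMO arrays. The cause of these shifts was not tested beyond the smaller number of arrays or genes fitted. The scalings moved the median of all probe sets from 0.017 to 0.006 and 0.008. Signal over background limits low probe sets: differences near the negative controls are compressed, and with the levels gone only an interval says which probe sets lie there.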
